A study of Mus musculus with 27 samples.

Results

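The 10 genes described here belong to the bone morphogenetic protein (BMP) pathway. They are the ligands Bmp4 and Bmp7, the receptors Bmpr1a and Bmpr1b, the secreted antagonist Fst (follistatin), the target genes Id1, Id2, Id3 and Id4, and the intracellular inhibitor Smad6. They were taken by symbol from a count table of 55487 mouse genes, and all 10 were among the 16330 genes whose count exceeded 10 in 3 or more of 27 libraries. RNA was sequenced from pieces of the optic stalk, the tissue that forms the optic nerve, cut by laser from frozen sections of mouse heads at embryonic day 14. A dorsal piece, a ventral piece and a piece rich in axons of retinal ganglion cells (the axon region) came from each of 4 control and 5 mutant embryos, which gave 6 groups. The labels do not name the embryo. Libraries with the same genotype and replicate number were taken to come from the same embryo.

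The mutants, Smarcc1-DCT-cKO, carried Baf155 loxP/loxP (Baf155 is another name of Smarcc1, whose product holds together SWI/SNF, a complex that moves nucleosomes), the Dct-Cre transgene and the Z/EG reporter. Controls were littermates without Dct-Cre, and the lines were kept on C57Bl6/J. Dct-Cre is active in the pigmented lineages of the eye and in the optic stalk, so cells of other origin in the captured pieces, such as mesenchyme, blood vessels and the axons themselves, keep Smarcc1. Whether the control embryos carried the loxP alleles or Z/EG was not given in the sources used here. The question these libraries put to the pathway is whether its ligands, antagonist and targets differed between regions of the stalk and between genotypes.

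BMP ligands bind receptor pairs at the cell surface, the receptors phosphorylate SMAD proteins, and the SMADs enter the nucleus and switch on targets, among which the Id genes are the best known. Id proteins bind E proteins and keep them from activating differentiation genes, and Smad6 feeds back on the receptors. In the developing eye, BMP signalling takes part in dorsal patterning, in formation of the pigment epithelium and in development of the optic disc and its glia. Id transcripts are commonly read as a sign of BMP activity, although other pathways also act on them.

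Smarcc1, the deleted gene, was lower in every mutant than in every control in the ventral piece (14.7 to 64.4 against 75.7 to 198 CPM) and in the axon region (1.86 to 44.9 against 50.1 to 242 CPM). CPM is the count of a gene scaled to a common library size. In the dorsal piece 3 of 5 mutants lay below every control (2.26 to 107 against 75.9 to 289 CPM), and 2 overlapped. Library totals ran from 10899418 to 33980417 counts, so that 1 read was worth 0.0294 to 0.0917 CPM. Genes detected numbered 9225 to 11358 in axon-region mutants, 12396 to 15177 in dorsal mutants and 12918 to 15086 in ventral mutants. In controls they numbered 10076 to 14118 in the axon region, 10881 to 16266 dorsally and 11727 to 16810 ventrally. Values of 0 in the axon region carry this limit. By counting error alone, a count of 0 allows up to 3 counts, or 0.0883 to 0.275 CPM, the floor. Folds given against this floor cover counting error only, so they are not lower limits. Summed markers of the optic stalk and astrocyte progenitors were present in all groups (333 to 4280 CPM), and summed markers of retinal ganglion cells and their axons were 1129 to 2784 CPM in the axon region against at most 1462 CPM elsewhere. Not all markers of this second list went that way. By fitted fold change 5 or 6 of 9 tested were lower in the other pieces, depending on the comparison. The batches A and B named in the labels held 1 control and 3 mutants, and 3 controls and 2 mutants.

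Of the members, 7 had an entry in the RefSeq promoter table (build GRCm38.p6), which was searched over the 250 bases before each RefSeq start of transcription. The windows of Id2 and Id4 are shown because these genes carry regional patterns described further on and because they hold the letters GGCGCC, which SMAD1 and SMAD5 are known to bind. The lines run 5′ to 3′ on the gene's strand and leave out bases that lie in an annotated exon of the gene, which leaves 89 of the 250 bases for Id2 and all of them for Id4. The RefSeq start of Id2 lies 1048 bases downstream of the start of its GENCODE gene model, so its whole window, the shown bases included, lies inside that gene model. The window of Id4 lies outside the gene. Capitals mark GGCGCC, which is its own reverse complement.
Id2 (chr12:25096254-25096342, minus strand): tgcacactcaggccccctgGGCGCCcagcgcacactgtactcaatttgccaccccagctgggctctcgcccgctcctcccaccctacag
Id4 (chr13:48260866-48261115, plus strand): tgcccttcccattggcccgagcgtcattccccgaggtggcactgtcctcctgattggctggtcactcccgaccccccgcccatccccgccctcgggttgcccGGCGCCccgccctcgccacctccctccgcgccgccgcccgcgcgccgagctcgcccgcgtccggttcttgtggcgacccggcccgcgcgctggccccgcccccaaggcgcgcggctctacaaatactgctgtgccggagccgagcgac

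The first base of GGCGCC lay 231 bases before the RefSeq start in Id2 and 148 bases before it in Id4. Among 32851 promoter windows of the same length, 9.59% held GGCGCC. Id3 held no GGCGCC, but it held CAGAC or its reverse complement GTCTG, the core of a site known for SMAD4, at 167 and at 68 bases before its RefSeq start, and 42.2% of the windows held these letters at least once. The Id3 window lies wholly in an annotated exon of the gene, since this RefSeq start is 325 bases downstream of the GENCODE one, and is not shown. Of the other members in the table, Bmpr1a held GGCGCC once, and CAGAC or GTCTG occurred in 2 of the 3 windows listed for Bmpr1b, and all of these windows likewise lie inside the gene models. Bmp4 and Smad6 held neither. These matches describe the letters and were not tied to any measured binding. Bmp7, Fst and Id1 had no entry.

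In no comparison did a member pass the test of the quasi-likelihood fit in edgeR (a change of more than 0.58 in either direction on the log2 scale at an adjusted p below 0.05). There were 12 comparisons, and the fit itself called few genes between genotypes, 0.0124% of 16145 genes in the dorsal piece, 0% of 16139 in the ventral piece and 0% of 14977 in the axon region. Of the members, 1 had an unadjusted edgeR p under 0.05 in the dorsal piece (Fst), 1 in the ventral piece (Smad6) and 0 in the axon region, against 5.35%, 3.19% and 3.55% of all genes tested. The median log2 fold change of the 10 members between mutant and control was 0.23 in the dorsal piece, 0.17 in the ventral piece and 0.08 in the axon region, beside -0.04, -0.08 and -0.29 over all genes tested. Between ventral piece and axon region in controls 0.251% of genes and no member were called. What follows are therefore levels, their spread and the order of the embryos. In such bulk samples fewer cells of a type and less RNA per cell cannot be told apart.

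**Figure D1:**
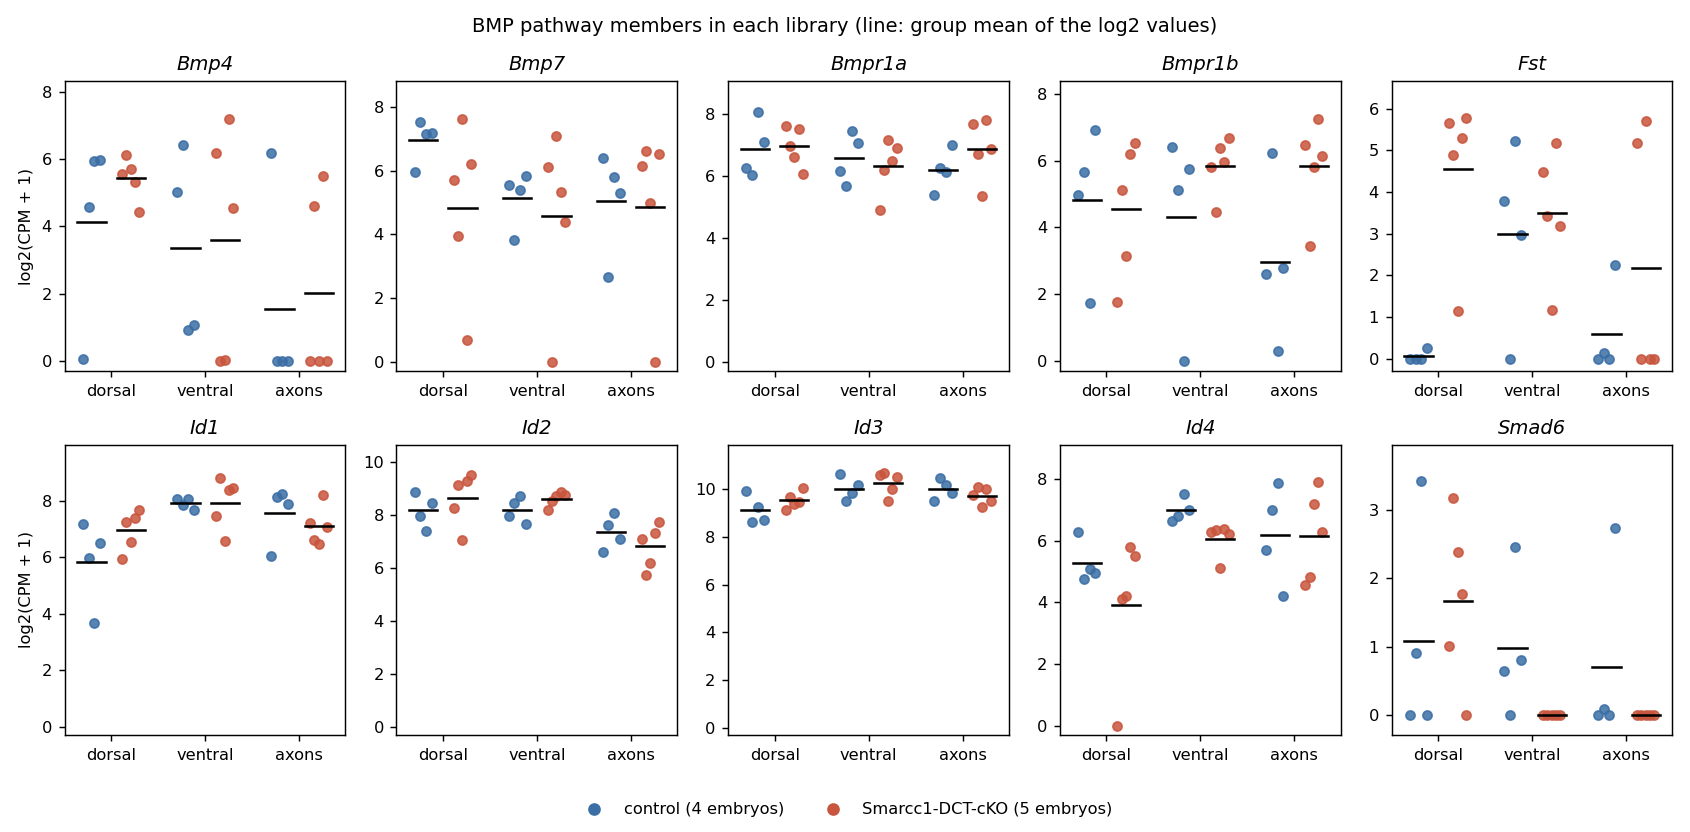
Level of each of the 10 members, as log2(CPM + 1), in the 4 control and 5 Smarcc1-DCT-cKO libraries of each region. A point is a library and the bar is the mean of the log2 values. Fst lies near 0 in the 4 dorsal controls and at 1.20 to 53.6 CPM in the 5 dorsal mutants, and the Id genes other than Id4 are above 10 CPM in every library.

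The ligand genes were uneven from embryo to embryo. Bmp4 (chr14:46383520-46390669, minus strand, mm10), which encodes a ligand with dorsal roles in the eye, stood at 0.0416, 22.6, 60.9 and 61.1 CPM in dorsal controls 1 to 4. Dorsal mutants 1 to 5 had 45.7, 69.0, 51.0, 39.1 and 20.7 CPM. The dorsal groups overlapped, and Bmp4 was near its floor only in control 1. In the ventral piece the controls had 31.5, 83.6, 0.914 and 1.12 CPM and the mutants 71.6, 0, 0.0294, 146 and 22.4 CPM. Each ventral group thus held libraries at about 1 CPM or less and libraries above 20 CPM. In the axon region Bmp4 was at 0 in 3 of 4 controls and in 3 of 5 mutants, and the others had 70.7 CPM (control 1), 23.2 CPM (mutant 2) and 43.7 CPM (mutant 4). Within embryos Bmp4 was higher in the dorsal piece than in the axon region in 7 of 9. Of the exonic bases of Bmp4, 3.96% are shared with Gm15217.

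Bmp7 (chr2:172868012-172940321, minus strand), whose product pairs with other BMPs and is needed for eye development, had 61.4, 185, 143 and 145 CPM in the dorsal controls. The ventral controls had 46.4, 13.2, 41.3 and 56.2 CPM, all below the lowest dorsal control. Of all genes tested, 1.3% were higher in the dorsal piece of controls with no overlap. Bmp7 was higher in the dorsal piece in 4 of 4 control embryos, as were 4.7% of genes. Yet the blocked edgeR fit gave a log2 fold change of 2.10 ± 1.69 (SE) with adjusted p = 1, so it did not pass. Summed periocular mesenchyme markers were 1160 to 10389 CPM in dorsal and 55.4 to 1305 CPM in ventral controls, and their part in this was not tested. Dorsal mutants had 51.3, 14.5, 198, 0.621 and 73.0 CPM, which spanned and overlapped the dorsal controls. The mutant ventral pieces had 69.1, 0, 135, 39.5 and 19.8 CPM. In the mutants Bmp7 was higher dorsally in 3 of 5 embryos. In the axon region the controls lay between 5.35 and 83.7 CPM and the mutants between 0 and 98.6 CPM, with 1 mutant at 0.

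The receptor genes showed no separation of groups. Bmpr1a (chr14:34410734-34503341, minus strand), the type I receptor known to act in early eye and lens development, was present in all 27 libraries, from 28.4 to 268 CPM. Its dorsal levels were 135 ± 93.6 CPM in controls (SD, n = 4) and 133 ± 54.7 CPM in mutants (SD, n = 5), its ventral levels 106 ± 56.9 and 89.3 ± 43.6 CPM, and its levels in the axon region 77.5 ± 35.8 and 136 ± 75.0 CPM. The genotypes overlapped in each region. Antisense Gm17110 shares 4.57% of its exonic bases. Bmpr1b (chr3:141837136-142169425, minus strand), the type I receptor linked to ventral retina, varied more, from 0 to 152 CPM. Its levels in the axon region were 5.12, 73.7, 0.239 and 5.86 CPM in controls and 87.2, 9.93, 55.1, 152 and 69.5 CPM in mutants. Mutants were higher there except for the overlap with control 2, and neither edgeR (log2 fold change 2.52 ± 1.71 (SE), adjusted p = 0.880) nor an exact permutation test (two-sided p = 0.0714 before adjustment) passed.

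Fst (chr13:114452290-114458951, minus strand), which encodes a secreted protein that binds activins and several BMPs and keeps them from their receptors, showed the widest gap between genotypes. In the dorsal piece 3 controls had 0 counts and control 4 had 3 counts (0.202 CPM). Dorsal mutants 1 to 5 had 541, 482, 17, 553 and 807 counts, or 49.6, 28.7, 1.20, 38.1 and 53.6 CPM. All 5 mutants were above all 4 controls, and mutant 3 lay far below the other mutants. The mean of 34.3 CPM was 199-fold the controls' floor of 0.172 CPM, the mean of 3 counts per library. This fold covers counting error only. Among all genes tested, 1.31% were higher in dorsal mutants with no overlap.

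The tests of dorsal Fst differed. edgeR fitted 9.92 ± 2.59 (SE) on the log2 scale, a value that depends on its prior count since the controls are at the floor, with adjusted p = 0.781. The exact permutation test over the embryos (two-sided) gave p = 0.0159 and, with embryos exchanged only within batches, p = 0.025, the smallest value that the 40 splits allow; adjusted over all genes tested, the first was 0.506. DESeq2, the tool the study used, gave an adjusted p of 1.18e-07 and called 3.86% of genes, and limma voom gave an adjusted p of 0.0092 and called 0.254%. Fst was higher in mutants in each batch: 49.6, 28.7 and 1.20 CPM against 0 in batch A, and 38.1 and 53.6 CPM against 0, 0 and 0.202 CPM in batch B.

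Outside the dorsal piece Fst did not separate the genotypes. Ventral controls had 12.8, 0, 36.3 and 6.90 CPM and ventral mutants 21.3, 9.84, 1.24, 35.3 and 8.08 CPM. In the axon region the controls had 0, 0.109, 0 and 3.76 CPM, and Fst was at 0 in 3 mutants and at 35.3 and 51.2 CPM in mutants 1 and 3. There the edgeR value with batch in the model was -5.51 ± 6.29 (SE), of opposite sign to the means of 17.3 CPM in mutants and 0.966 CPM in controls, so no direction is given. In controls Fst was lower dorsally than ventrally in 3 of 4 embryos, with both at 0 in control 2. The ventral mean of 14 CPM was 81.2-fold the dorsal floor (edgeR adjusted p = 1). Without control 3 of the ventral piece the mean was 6.56 CPM and the fold 38.0. The genotype difference in the dorsal piece exceeded that in the ventral piece by 11.46 ± 4.46 (SE) on the edgeR log2 scale, with adjusted p = 1, in a test that called 0.00612% of genes and gave 2.29% an unadjusted p under 0.05. Fst shares 2.51% of its exonic bases with antisense Gm47040.

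Some lists of cell type markers differed between genotypes in the dorsal piece, where Fst stood apart, although edgeR called no marker of any list there. Summed periocular mesenchyme markers were 1160 to 10389 CPM in dorsal controls and 55.6 to 373 CPM in dorsal mutants, with all 11 tested markers of 12 lower in the fit and Prrx2 at 0 in all dorsal libraries. Summed melanin synthesis genes were 43.5 to 5003 CPM in controls and 2989 to 11909 CPM in mutants, with 8 of 8 higher in the fit, Gpr143 at 0 in the controls and an overlap of the sums. Summed retinal progenitor markers were 128 to 328 CPM in controls and 406 to 1905 CPM in mutants, with no overlap and 5 of 6 tested markers of 7 higher in the fit. Endothelial markers summed to 240 to 452 CPM in controls and 43.2 to 524 CPM in mutants, which overlapped, and 9 of 9 were lower in the fit. Markers of the optic stalk and astrocyte progenitors summed to 749 to 1179 CPM in controls and 333 to 729 CPM in mutants, with 7 of 9 lower. The edgeR p before adjustment was under 0.05 for 6 of 11 mesenchyme, 2 of 8 melanin and 2 of 6 retinal progenitor markers. It was so for 0 of 9 endothelial and 2 of 9 optic stalk and astrocyte markers, against 5.35% of all genes. Summed mural, erythroid, ganglion cell and macrophage markers overlapped between genotypes. The part of these differences in the Fst result was not tested.

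**Figure D2:**
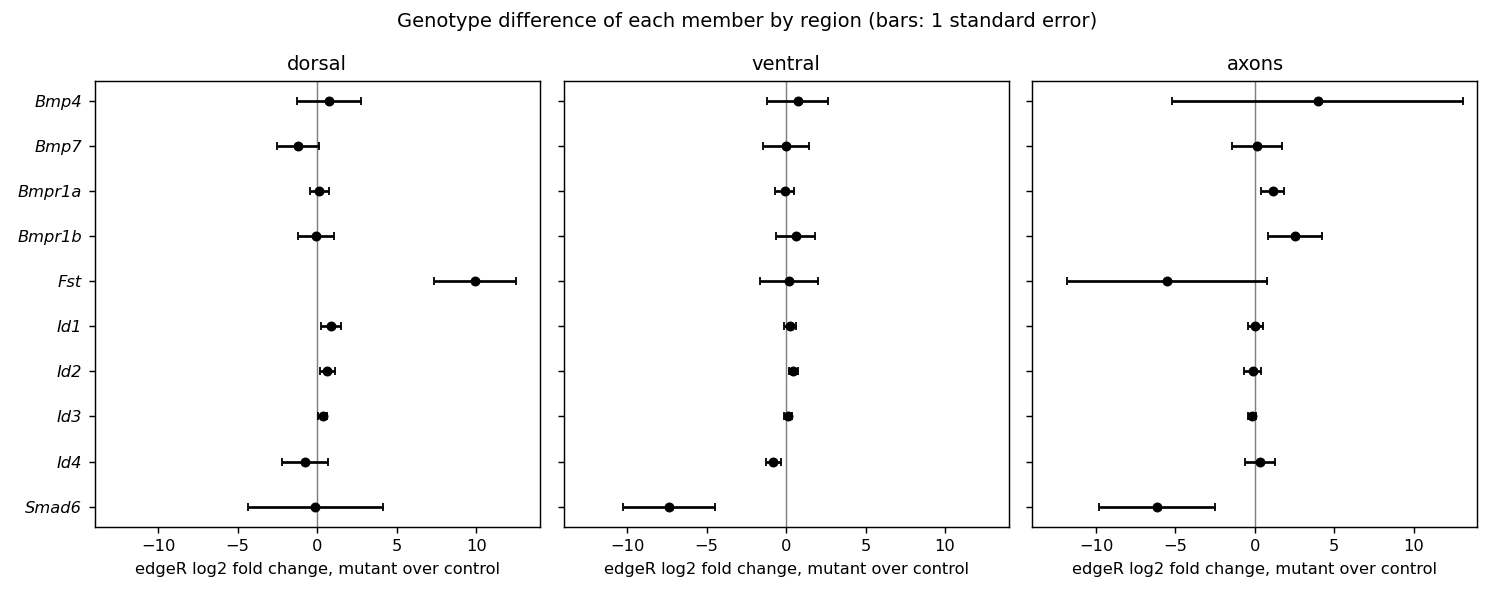
edgeR log2 fold change of mutant over control for each member in the dorsal piece, ventral piece and axon region, with bars of 1 standard error. Fst in the dorsal piece (9.92) and Smad6 in the ventral piece (-7.36) lie farthest from 0, both against a group at the detection floor, where the fitted size depends on the prior count; no member passed the adjusted threshold.

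The Id genes were the most abundant members. Per kilobase of exon, Id3 was highest in all 6 groups, from 335 ± 150 CPM per kb (SD, n = 4) in dorsal controls to 715 ± 217 CPM per kb (SD, n = 5) in ventral mutants. Id1 and Id2 came next, with 65.7 ± 47.0 and 127 ± 52.9 CPM per kb in dorsal controls, which do not differ beyond their spread, and 208 ± 26.1 and 125 ± 39.9 CPM per kb in ventral controls. Id4 was lower, 10.7 ± 6.19 CPM per kb in dorsal controls and 33.5 ± 9.46 CPM per kb in ventral controls. In dorsal controls the order went on with Bmp7 (33.2 ± 12.9), Bmpr1a (21.3 ± 14.7), Bmp4 (16.1 ± 13.4), then Id4, Bmpr1b (8.44 ± 8.37), Smad6 (0.832 ± 1.49) and Fst at the floor, all in CPM per kb, and neighbours from Bmp7 on overlapped in their spread. The 4 Id genes together made 1026 ± 430 CPM in dorsal controls and 1393 ± 480 CPM in dorsal mutants, 1763 ± 325 and 2024 ± 483 CPM in the ventral groups, and 1551 ± 516 and 1244 ± 298 CPM in the axon region. Id3 made up 56.9% to 70.1% of that sum on average.

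**Figure D3:**
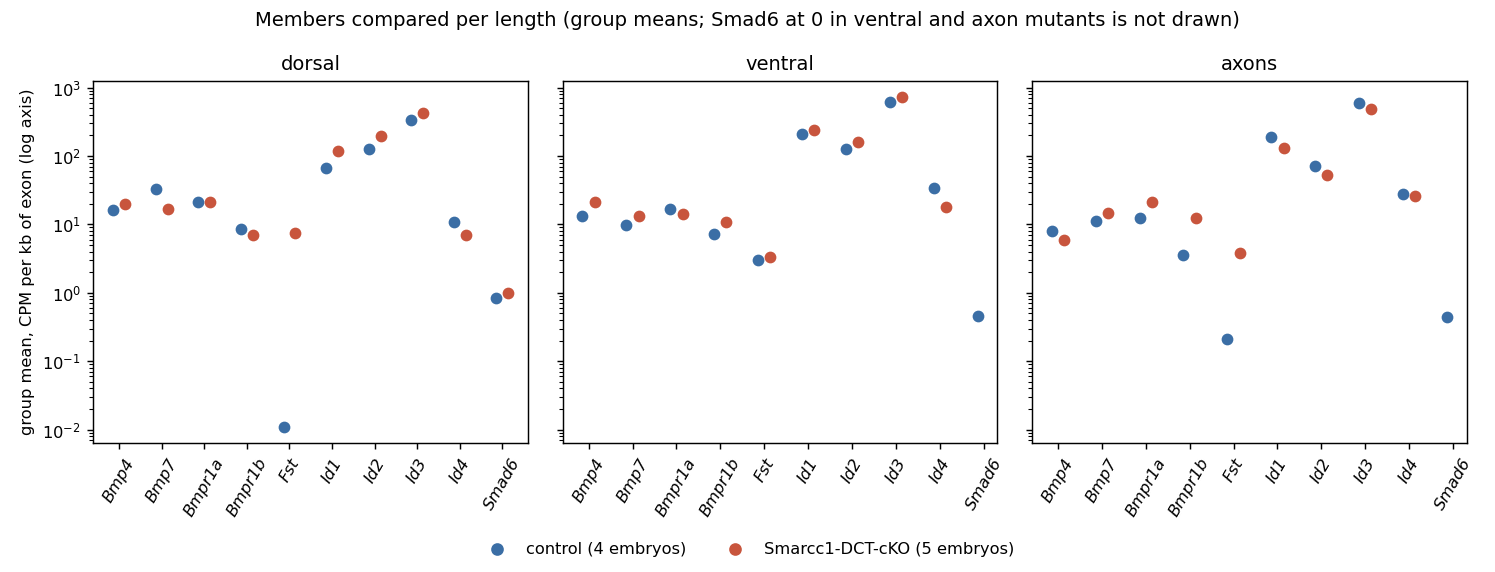
Group means of each member in CPM per kb of exon, on a log axis, in the 3 regions for 4 control and 5 mutant libraries. Id3 is highest in every group (335 CPM per kb in dorsal controls), and Smad6 (0.832) and Fst are lowest there; the means of 0 of Smad6 in ventral and axon-region mutants are not drawn.

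Id1 (chr2:152736251-152737410, plus strand), the Id gene with the best known SMAD response, had 142, 61.2, 11.7 and 90.0 CPM in dorsal controls. In ventral controls it had 265, 228, 267 and 204 CPM, all above the highest dorsal control. The ratio of the means, 241 over 76.2 CPM, was 3.16. edgeR with the embryo as a block gave -1.76 ± 0.60 (SE) on the log2 scale for dorsal against ventral, with adjusted p = 1. In mutants the dorsal pieces had 60.9, 149, 92.4, 168 and 204 CPM and the ventral pieces 175, 450.1, 93.7, 329 and 346 CPM. These groups overlapped, but in each mutant embryo the dorsal value was the lower one.

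Id3 (chr4:136143497-136145755, plus strand) had 979, 397, 606 and 419 CPM in dorsal controls and 1578, 718, 915 and 1144 CPM in ventral controls. Control 1 was the highest of both groups, so that the groups overlapped although each embryo was lower dorsally. The edgeR value was -0.90 ± 0.27 (SE), with adjusted p = 1. Dorsal mutants had 557, 827, 665, 697 and 1069 CPM and ventral mutants 1533, 1645, 724, 1034 and 1468 CPM. Each mutant embryo was again lower dorsally, with an edgeR value of -0.71 ± 0.25 (SE) and adjusted p = 1.

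Id4 (chr13:48261228-48266026, plus strand), an Id gene known from neural progenitors and astroglia, had 76.9, 26.2, 32.6 and 29.7 CPM in dorsal controls and 98.6, 111, 181 and 125 CPM in ventral controls. The groups did not overlap, and control 1 was the highest dorsally. The edgeR value of -1.64 ± 1.11 (SE) had an adjusted p of 1. Dorsal mutants had 0, 16.2, 17.6, 54.3 and 44.5 CPM and ventral mutants 77.0, 79.8, 33.5, 81.6 and 72.8 CPM, lower dorsally in each embryo. Exons of A330033J07Rik and of antisense Gm49291 share 4.44% of the exonic bases of Id4, and the strand setting of the counting was not given.

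Id1, Id3 and Id4 were therefore each lower in the dorsal than in the ventral piece in 9 of 9 embryos, also with library sizes scaled by TMM. Of all 16330 genes, 0.667% were lower in every embryo. No gene was called between dorsal and ventral controls (0% of 16330), and 3 members (Id1, Id3 and Fst) had an unadjusted edgeR p under 0.05 there, against 2.99% of genes. In mutants 0.0306% of genes were called, and Id3 and Smad6 had an unadjusted p under 0.05, against 3.71%. Id1, Id4 and Bmp7 were the members whose control groups did not overlap, against 2.68% of genes. Summed optic stalk and astrocyte progenitor markers were also lower dorsally, 749 to 1179 against 1572 to 1876 CPM in controls and 333 to 729 against 1263 to 2003 CPM in mutants, with 9 of 9 markers lower in the fit of each genotype. Summed mesenchyme markers were 1160 to 10389 CPM in dorsal and 55.4 to 1305 CPM in ventral controls. The part of these markers in the Id differences was not tested.

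**Figure D4:**
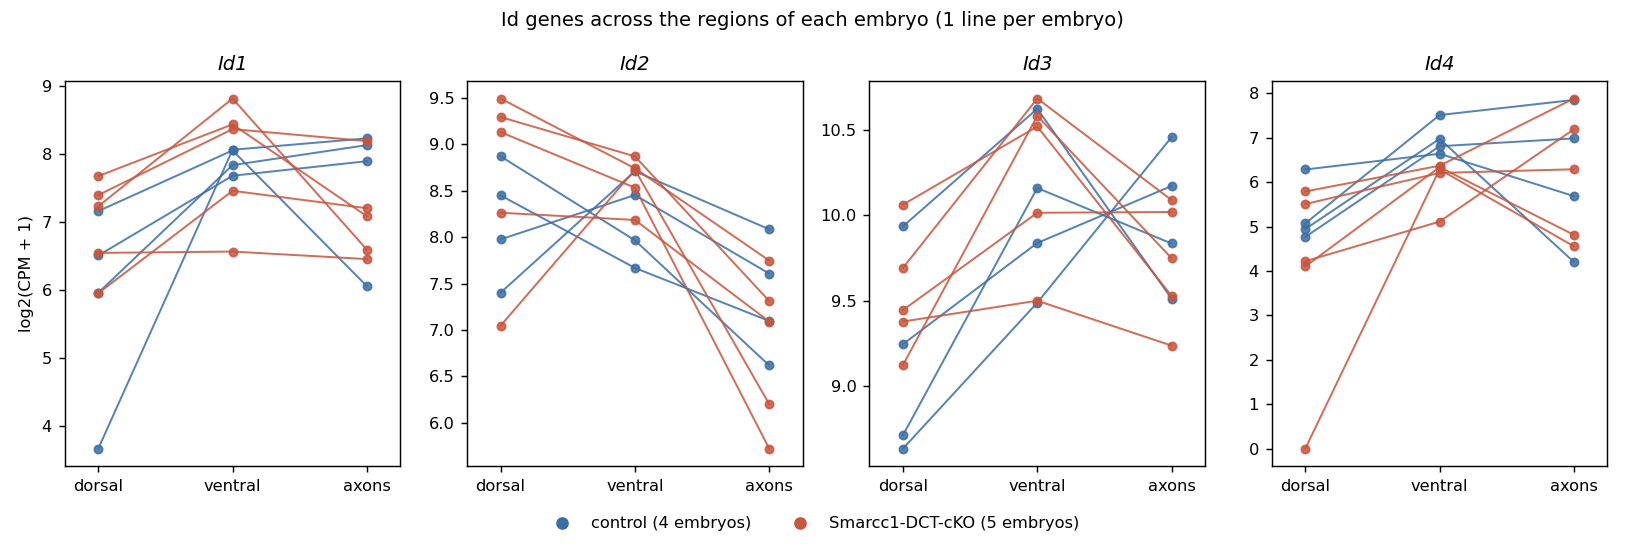
Id1, Id2, Id3 and Id4 as log2(CPM + 1) in the dorsal piece, ventral piece and axon region, 1 line per embryo, blue for 4 controls and red for 5 mutants. Id1, Id3 and Id4 go up from the dorsal to the ventral piece in 9 of 9 embryos, and Id2 goes down from the ventral piece to the axon region in 9 of 9.

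Id2 (chr12:25093799-25097140, minus strand), an Id gene with wide expression in neural progenitors, followed another regional order. It had 467, 251, 168 and 349 CPM in dorsal, 249, 349.8, 418 and 202 CPM in ventral and 97.1, 194, 270.5 and 136 CPM in axon-region controls. Dorsal and ventral levels overlapped, with means of 309 and 305 CPM. In mutants it had 306, 560.3, 131, 627 and 720.3 CPM in dorsal, 290.1, 369, 423, 467 and 427 CPM in ventral and 135, 51.7, 72.5, 158 and 214 CPM in axon-region libraries. Every ventral mutant was above every axon-region mutant, a pattern 2.5% of genes had. Dorsal mutant 3 fell among the axon-region values, so that the dorsal group overlapped.

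In the mutants Id2 was 3.72 times higher by ratio of means in the dorsal piece than in the axon region and 3.13 times higher in the ventral piece, and both comparisons use the same axon-region libraries. The edgeR values were 1.69 ± 0.41 (SE; adjusted p = 0.0621) and 1.60 ± 0.41 (SE; adjusted p = 0.0902), just short of the threshold, while 0.698% and 0.545% of genes were called and the unadjusted p was under 0.05 in 12.2% and 11.2%. The median of all genes was itself shifted against the axon region. The shift was 0.91 and 0.95 on the log2 scale in mutants (1.04 and 1.01 with RLE scaling) and 0.33 and 0.35 in controls (0.54 and 0.46). Whether Id2 in the mutants exceeded that shift was not tested. Under DESeq2 (adjusted p = 5.35e-05 and 0.000228) and the newer edgeR method (adjusted p = 0.025 and 0.0425) Id2 passed in both. These tools called 26.3% and 1.44% of genes in the dorsal comparison and 24.1% and 1.12% in the ventral one. In controls the edgeR values were 0.71 ± 0.46 and 0.61 ± 0.44 (SE), with adjusted p of 0.903 and 1. Within embryos Id2 was higher in the ventral piece than in the axon region in 9 of 9, as were 1.24% of genes, and higher in the dorsal piece in 8 of 9. The ganglion cell and axon markers summed to 45.6 to 505 CPM in dorsal, 151 to 302 CPM in ventral and 1129 to 2784 CPM in axon-region mutants. Pou4f2 and Elavl4 of this list were at 0 in axon-region mutants. In the fit the list was split. Of 9 tested markers of 10, 6 were lower and 3 higher in the dorsal piece than in the axon region. In the ventral piece 5 were lower and 4 higher. The part of these markers in the Id2 difference was not tested.

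Against the axon region Id3 and Id1 were the members with the lowest p in controls. Axon-region controls had 730.1, 1406, 1153 and 913 CPM of Id3 and 65.5, 279, 299.5 and 237 CPM of Id1. In both genes 3 of 4 embryos were lower in the dorsal piece, and control 1 was higher there. The edgeR value for dorsal against axon region was -1.14 ± 0.28 (SE; adjusted p = 0.0768) for Id3 and -1.87 ± 0.63 (SE; adjusted p = 0.422) for Id1. These were the 2 members with an unadjusted p under 0.05 there, against 6.09% of genes, and 0.704% of genes were called. Without control embryo 1 Id3 passed (-1.5, adjusted p = 0.0111 in edgeR), among 59 of 16330 genes called. DESeq2 called Bmp4, Id1 and Id3 here, among 13.1% of genes.

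In mutants the axon region had 860.1, 1089, 603, 1038 and 738 CPM of Id3 and 146, 95.5, 86.7, 291 and 135 CPM of Id1. The edgeR values for dorsal against axon region were -0.36 ± 0.24 for Id3 and -0.38 ± 0.52 for Id1 (SE; adjusted p = 0.577 and 0.806). The genotype difference of that contrast was 0.77 ± 0.37 (SE) for Id3, with adjusted p = 0.961, and 1.5 ± 0.81 (SE) for Id1, with the same adjusted p. Id3 was the 1 member with an unadjusted p under 0.05 in it. Of all genes, 4.95% had an unadjusted p under 0.05 in that test and 0.0122% were called. Id4 was lower in the dorsal piece than in the axon region in 5 of 5 mutants, as were 2.36% of genes. It had 22.5, 27.1, 145, 235 and 77.2 CPM in the axon region, and the edgeR value was -2.21 ± 1.02 (SE; edgeR adjusted p = 0.390). In this comparison 3 members (Id2, Id4 and Smad6) had an unadjusted edgeR p under 0.05, against 12.2% of genes. Axon-region controls had 50.4, 125, 229.6 and 17.4 CPM of Id4, and 2 of 4 control embryos were lower dorsally.

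**Figure D5:**
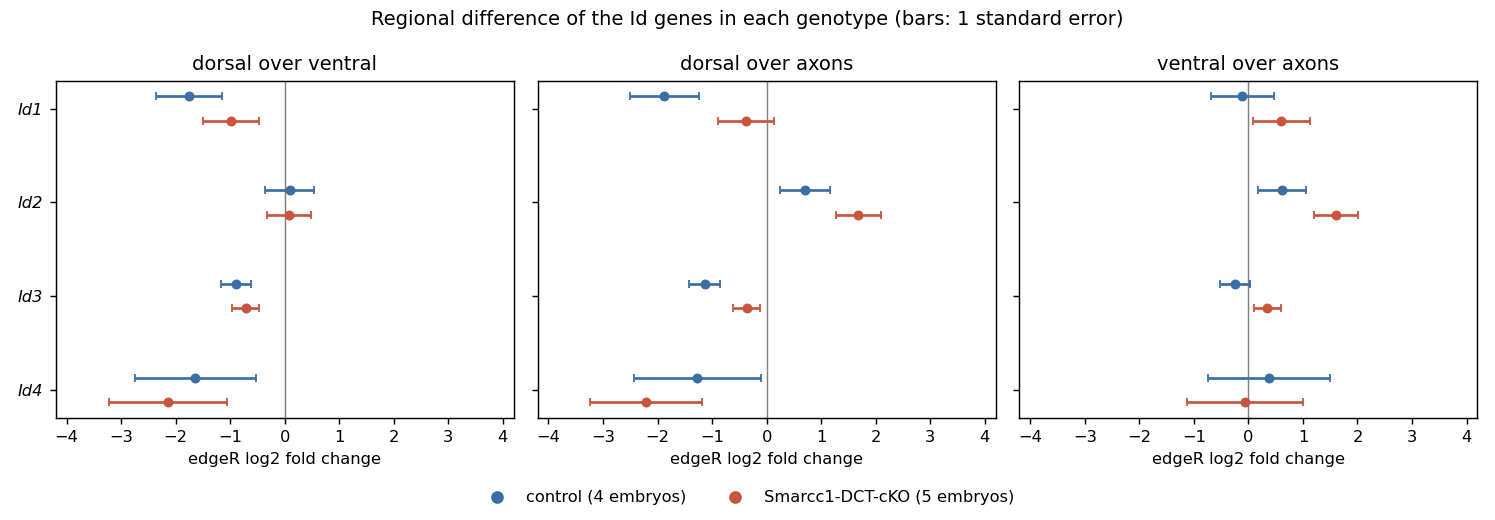
edgeR log2 fold changes of Id1 to Id4 between regions, in 4 controls (blue) and 5 mutants (red), with bars of 1 standard error. Id1, Id3 and Id4 lie below 0 for dorsal over ventral in both genotypes, and Id2 in mutants lies at 1.69 and 1.60 over the axon region; no value passed the adjusted threshold.

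Between genotypes the Id genes overlapped in all regions but 1. In the dorsal piece Id1 averaged 135 ± 57.6 CPM in mutants (SD, n = 5) and 76.2 ± 54.5 CPM in controls (SD, n = 4), Id2 469 ± 243 and 309 ± 129 CPM, and Id3 763 ± 196 and 600.2 ± 269 CPM. The edgeR values of these genes were 0.86 ± 0.65, 0.64 ± 0.46 and 0.34 ± 0.30 (SE), with adjusted p of 0.993 to 1, and the groups overlapped. Id4 had a lower mean in dorsal mutants, 26.5 ± 22.3 against 41.3 ± 23.8 CPM, also with overlap. The exception was Id4 in the ventral piece, where all 5 mutants (33.5 to 81.6 CPM) were below all 4 controls (98.6 to 181 CPM). The ratio of control to mutant means was 1.87. The exact permutation p of 0.00794 (two-sided) was the smallest that 126 splits allow, and 0.025 within batches was likewise the smallest of 40, but adjusted over all genes tested the permutation p was 1.00. edgeR gave -0.80 ± 0.45 (SE), with adjusted p = 0.999. Of all genes, 0.706% were lower in ventral mutants with no overlap.

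Smad6 (chr9:63953076-64022059, minus strand), the inhibitory SMAD, was the scarcest member, at 0 counts in 16 of 27 libraries. In the dorsal piece the controls had 0, 0.868, 9.79 and 0 CPM and the mutants 1.01, 8.05, 4.24, 2.41 and 0 CPM, with overlap. All 5 ventral mutants and all 5 axon-region mutants had 0 counts. Ventral controls had 0.562, 0, 4.51 and 0.746 CPM and axon-region controls 0, 0.0546, 0 and 5.68 CPM, so that controls at 0 overlapped with the mutants in both regions. The ventral control mean of 1.46 CPM was 9.01-fold the mutants' floor of 0.161 CPM, and 2.70-fold without control 3, where the mean was 0.436 CPM. The edgeR p was 0.0357 (adjusted p = 0.999) and the exact permutation p 0.0476 (two-sided), 0.075 within batches. In the axon region the corresponding fold over the floor was 8.83 (edgeR adjusted p = 0.880). It rests on control 4, since the mean of the other 3 controls, 0.0182 CPM, is below the floor. In mutants Smad6 was higher in the dorsal than in the ventral piece in 4 of 5 embryos (edgeR adjusted p = 1). The dorsal mean was 19.5-fold the ventral floor and 19.4-fold the axon-region floor (edgeR adjusted p = 0.379 against the axon region). Without mutant 2 of the dorsal piece these folds were 11.9 and 11.8.

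Smad6 is also a gene of blood vessels. Endothelial markers summed to 23.7 to 188 CPM in ventral controls and 9.23 to 105 CPM in ventral mutants, with 6 of 9 lower in the fit, Pecam1 at 0 in the controls and Cdh5, Tek and Emcn at 0 in the mutants. In the axon region, where Smad6 was likewise at 0 in the mutants, they summed to 3.55 to 194 CPM in controls and 0.584 to 404 CPM in mutants, with medians of 77.7 and 363 CPM, Esam at 0 in the controls and 6 of 9 higher in the fit. In dorsal mutants they summed to 43.2 to 524 CPM. Their part in the Smad6 differences was not tested.

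The members were set beside 59 other genes of the pathway in 6 roles, which are other ligands, receptors, extracellular antagonists and modulators, SMADs and their regulators, other responsive genes, and the E proteins that Id proteins bind. None was called by edgeR in any of the 12 comparisons. In the dorsal piece 44 were tested between genotypes. At an unadjusted edgeR p under 0.05, 1 was higher and 3 were lower in mutants, against 5.35% of all genes tested. The 44 had a median log2 fold change of -0.57, beside -0.04 over all genes tested. Fstl1, a secreted glycoprotein related to follistatin, had 823, 1159, 2179 and 1223 CPM in dorsal controls and 354, 266, 506, 719 and 447 CPM in dorsal mutants, with no overlap (1.61% of genes were lower in this way). Its edgeR value was -1.27 ± 0.29 (SE; edgeR adjusted p = 0.498). Summed mesenchyme markers were 1160 to 10389 CPM in these controls and 55.6 to 373 CPM in these mutants. Their part in the Fstl1 difference was not tested. Atoh8, a transcription factor gene that responds to BMP, had 0, 0, 0 and 0.538 CPM in dorsal controls and 17.1, 30.4, 1.06, 16.1 and 8.57 CPM in dorsal mutants. These groups did not overlap either (edgeR adjusted p = 0.918), and 1.31% of genes were higher in this way. Smad9, a receptor-activated SMAD, and Gdf10, a ligand of the wider family, were at 0 counts in all 5 dorsal mutants, and of the dorsal controls Smad9 had 44.6, 0, 0 and 21.3 CPM and Gdf10 64.7, 62.5, 0 and 0.740 CPM. Controls at 0 thus overlapped with the mutants. The zeros were not particular to the dorsal piece. Smad9 was also at 0 in all ventral and axon-region mutants. Gdf10 was at most 0.418 CPM in ventral mutants and 1.60 CPM in axon-region mutants.

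In the ventral piece 45 of the 59 were tested. At an unadjusted edgeR p under 0.05, 0 were higher and 3 lower, against 3.19% of all genes tested. Bmp1, which encodes a protease that cuts the antagonist chordin, had 107, 81.2, 115 and 60.8 CPM in ventral controls and 27.9, 17.3, 41.8, 34.4 and 36.8 CPM in ventral mutants. The groups did not overlap (0.706% of genes were lower in this way), and the edgeR value was -1.53 ± 0.59 (SE; edgeR adjusted p = 0.999). Nbl1 and Vwc2, which encode secreted BMP antagonists, were at 0 in all 5 ventral mutants and at 0 to 12.2 and 0 to 19.7 CPM in ventral controls. Nbl1 was lower in dorsal mutants as well, at 0 to 16.7 CPM against 25.6 to 57.7 CPM in dorsal controls. Those groups did not overlap, and 1.61% of genes were lower in this way. In the axon region Nbl1 overlapped between genotypes. In the axon region 43 were tested. Bmp5, a ligand, was the 1 with an unadjusted edgeR p under 0.05, against 3.55% of all genes tested. It was at 0 in all mutants and 0 to 7.15 CPM in controls. Other genes overlap 46.7% of its exonic bases.

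Over the 27 libraries the members' CPM followed each other in few pairs. The highest Spearman rho between members was 0.79, for Id1 and Id3, and the next member for Id4 was Id1 (0.58). Bmp4 reached at most 0.17 with any other member (Id2) and Bmp7 at most 0.11 (Bmp4). Among all other tested genes, the most alike were Sgpp1 for Bmp4 (0.66), Sec24d for Bmp7 (0.68), Fam69a for Bmpr1a (0.77), Fam72a for Bmpr1b (0.74) and Uevld for Fst (0.79). They were Ptprz1 for Id1 (0.77), Lars2 for Id3 (0.79) and Sh3glb1 for Id4 (0.74). These are descriptions, since 3 libraries come from each embryo and regions differ in many genes at once.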

How the data were processed

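The authors deposited unnormalised gene-level counts. They had run Seq2Science with its defaults, in which STAR placed the reads on mm10 and HTSeq counted them. Tool versions, and whether counting used strand, are not given in the sources used here. The cDNA was amplified by PCR without molecular identifiers, so that the floors given for counts of 0 cover counting error only.

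GENCODE M21 (mm10) supplied symbols, positions and exon lengths, with 55227 of 55487 identifiers matched. The 10 members, the 59 other pathway genes and the cell type markers were chosen with earlier results of these data known. Groups, batches and replicate numbers came from the labels. CPM values were scaled by the library total alone unless TMM is named.

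Genes whose count exceeded 10 in 3 or more of 27 libraries were tested with edgeR 4.0.16 in R 4.3.3 (quasi-likelihood F-test, two-sided, robust, legacy setting, TMM scaling, Benjamini-Hochberg adjustment). Genotypes were compared within each region on 9 libraries with batch as a covariate. Regions, and the differences of genotype effects between regions, were compared on all 27 libraries with the embryo as a block. The same replicate number within a genotype was taken to mark the same embryo, since the study took all 3 regions from each embryo. The labels do not name the embryo, so this link is assumed. Deviations from group means of libraries with the same number correlated at only -0.02 to 0.11, which does not establish the link. A gene was called when it changed by more than 0.58 on the log2 scale at an adjusted p below 0.05. Exact permutation tests exchanged the 9 embryos of a region over 126 splits, or over 40 splits within batches, on log2(CPM + 1), and their p was adjusted over all genes tested rather than over the members. A permutation p is the share of splits with a difference at least as large as the observed one. The edgeR p sets a difference against a spread between libraries that is moderated across genes. The fits were tested on simulated data.

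All members are described in all groups. Members with an unadjusted p under 0.05 or with groups that did not overlap are named with their tests, and of the other pathway genes those with an unadjusted p under 0.05 between genotypes, at most 4 per region. The gene most alike to Id2 over the libraries is not reported here. Alternatives were DESeq2 1.42.0, limma voom (limma 3.58.1), the newer edgeR method, RLE scaling, other filters, batch B alone, other blocks and leaving out each embryo.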

Additional observations from a re-analysis of the deposited data

Results flagged for a closer look

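In 9 of 60 group-by-gene sets of 4 or 5 libraries, 1 library stood apart from the rest of its group by Dixon's criterion. Chance meets it in about 1 in 20 groups of normally distributed values. Sets with many values of 0 are not so distributed, so the count is not to be read against that rate. Among the controls of the axon region, control 1 had 70.7 CPM of Bmp4 with the others at 0, control 2 had 73.7 CPM of Bmpr1b with the next at 5.86 CPM, control 4 had 3.76 CPM of Fst with the next at 0.109 CPM, and control 4 had 5.68 CPM of Smad6 with the next at 0.0546 CPM. Among dorsal controls, control 4 had 0.202 CPM of Fst, itself at the floor of 3 counts, with the others at 0. Control 1 had 76.9 CPM of Id4 with the next at 32.6 CPM, and control 3 had 9.79 CPM of Smad6 with the next at 0.868 CPM. Among ventral controls, control 3 had 4.51 CPM of Smad6 with the next at 0.746 CPM. Among ventral mutants, mutant 3 had 33.5 CPM of Id4 with the next lowest at 72.8 CPM.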

How the results depend on the processing

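The count of called members was 0 in all 12 comparisons in edgeR and reached at most 3 under any alternative, and no named log2 fold change reversed its sign. With DESeq2 it was 1 for mutant against control in the dorsal piece (Fst), 1 for dorsal against ventral in controls (Fst), 3 for dorsal against axon region in controls (Bmp4, Id1 and Id3), 2 for ventral against axon region in controls (Bmp4 and Fst), 2 and 1 for dorsal (Id2 and Id4) and ventral (Id2) against axon region in mutants, and 1 for the genotype effect in the dorsal against the ventral piece (Fst). Over all genes tested DESeq2 called 3.86%, 6.14%, 13.1%, 12%, 26.3%, 24.1% and 5.13% in these comparisons, in the order given. Over all 12 comparisons it called 2.45% to 26.3%, against 0% to 0.704% in edgeR. limma voom gave 1 in the dorsal genotype comparison (Fst) and 1 for dorsal against axon region in mutants (Id2). It called 0.254% and 5.14% of all genes there. The newer edgeR method gave 1 for dorsal against axon region in controls (Id3), 1 in mutants (Id2) and 1 for ventral against axon region in mutants (Id2). In these it called 0.863%, 1.44% and 1.12% of all genes. RLE scaling gave 1 for dorsal against axon region in mutants (Id2), among 93 of 16330 genes called. Leaving out each embryo in turn gave 0 to 1 for dorsal against axon region in controls (Id3 without control 1) and 0 to 1 in mutants (Id2 without control 3). The 59 and 136 genes called by these fits were out of 16330. The embryo block was also removed: with no replicate block 1 member was called for dorsal against axon region in mutants (Id2), and this changed no other count. That fit called 144 of 16330 genes there. Between genotypes the same replicate numbers do not pair the embryos (correlations of -0.05 to 0.03), and a replicate block with batch gave 0 called members in each region. The means of 60 groups stayed within 1 SD with TMM-scaled library sizes, and 2 of them (Bmpr1b and Id4 in dorsal mutants) moved further in batch B alone. Folds against groups at the floor were also taken without each library of the higher group, an alternative chosen after seeing the data. Those that moved by more than 1.5 times are given with the results. Batch A held 1 control, so that it gives no test of its own. The cause of these differences was not tested. Fst in dorsal controls and Smad6 in most libraries lay at the floor. By counting error alone the floor was 0.125 to 0.202 CPM in dorsal controls and at most 0.275 CPM in any library. Totals were 14860487 to 24047515 counts in dorsal controls and 10899418 to 16774072 in dorsal mutants. The part of depth in these values was not tested. Fewer genes were detected in axon-region mutants, and the part of this in the values of 0 there was not tested.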
